A study of Homo sapiens with 8 samples.

Results

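Vimentin, N-cadherin and 8 transcription factors of the mesenchymal state (ZEB1, ZEB2, SNAI1, SNAI2, TWIST1, TWIST2, MSC and PRRX1) were followed in Hs578T cells under 2 levels of glucose. The 10 genes were chosen by symbol, and each was found among the 21077 rows of the table. RNA-Seq had been done on 8 libraries, 4 labeled low glucose (the control) and 4 labeled high glucose, which stands for hyperglycemia. By the study's methods the levels were 5 mM and 25 mM, kept for 48 hours in flasks before RNA isolation. Its RNA-Seq methods do not list cultured Hs578T, so the time and the flasks are taken over from its other lines. All cells were Hs578T, an established breast cancer line that lacks the estrogen receptor, and glucose cultures were, by the study's methods, conditioned in low glucose and then given medium that contained no serum at either level. Mannitol was added to some of its controls to match osmolarity, and whether this was so here is not stated. The study reports no difference with and without mannitol in the phenotypes it examined, shown for proliferation and migration. It gives no such comparison for RNA, so glucose and osmolarity cannot be told apart here. No gene was altered and no drug was added according to the labels, which do not tell how the replicate flasks relate to each other. The p values thus reflect library-to-library spread only, and this may be technical. The question addressed here is how hyperglycemia changes the expression of genes that mark and drive the mesenchymal phenotype.

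Epithelial cells are held together by E-cadherin, and in the epithelial-mesenchymal transition (EMT) they give up these contacts, take on a spindle shape and become motile. The transcription factors of the ZEB, SNAIL and TWIST families drive this change. ZEB and SNAIL proteins are zinc finger repressors that bind E-box sequences and shut off CDH1, the E-cadherin gene. TWIST proteins are basic helix-loop-helix (bHLH) factors that bind E-boxes with E protein partners. Vimentin (VIM) is the intermediate filament of mesenchymal cells, and N-cadherin (CDH2) replaces E-cadherin at their contacts. MSC (musculin) is a bHLH repressor of muscle differentiation, and PRRX1 is a homeobox factor of limb and craniofacial mesenchyme that can also drive EMT. Hs578T is known as a mesenchymal line, so these genes were read in cells that had largely passed through the transition before the experiment.

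The mesenchymal label held at both glucose levels. The 10 mesenchymal markers VIM, FN1, SPARC, COL1A1, COL1A2, THY1, PDGFRB, CDH11, CAV1 and AXL were all expressed and summed to 60360 to 64250 counts per 1e6 (CPM) at low glucose and to 39980 to 41990 CPM at high glucose, a fall that came mostly from FN1 (from 42759 to 24880 CPM), while COL1A2, THY1, CDH11 and CAV1 rose. ESR1, which encodes the estrogen receptor, stayed under 0.5 CPM in every library, as did PGR, KRT19 and EPCAM, and the 10 luminal epithelial markers summed to 300.8 to 318.7 CPM at the low and 140.7 to 161.4 CPM at the high level, mostly from KRT18. The 8 basal markers summed to 1087 to 1160 and 439.7 to 461.2 CPM, with KRT5 under 0.5 CPM throughout. Endothelial and muscle lists did not exceed 8.927 and 1.911 CPM in any library, and the 5 leukocyte markers found in the table, with LYZ listed at 0, summed to 187.5 to 195.2 CPM at the low and 100.6 to 104.6 CPM at the high level, almost all from CD68. The part of these shifts in the results below was not tested. Estimated depth was 10244900 to 11956677 counts per library. Values are the deposited signal, read as TMM-scaled CPM although the table states no unit, with mean ± SD over 4 libraries per group. Fold changes are differences of mean log2(CPM + 1), positive where high glucose was higher, and this scale understates changes of low genes. Adjusted p values are from limma with Benjamini-Hochberg adjustment over all genes.

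Of the 10 genes, 6 fell in high glucose, 1 rose and 3 did not pass an adjusted p of 0.05. VIM, CDH2, ZEB1, TWIST1, TWIST2 and MSC fell, PRRX1 rose, and ZEB2, SNAI1 and SNAI2 did not pass. This is to be read against a broad response: 72.9% of the 15570 genes tested were called in either direction, 37.2% lower and 35.7% higher. The 7 called members are close to that share, and the groups did not overlap for any of these 7, as for 66.7% of all tested genes. VIM and MSC fell at least 2-fold, as did 8.48% of tested genes. The median log2 fold change was -0.50 over the 10 genes and within rounding 0.00 over all tested genes. In bulk RNA, fewer cells that express a gene and less RNA per cell cannot be told apart.

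**Figure D1:**
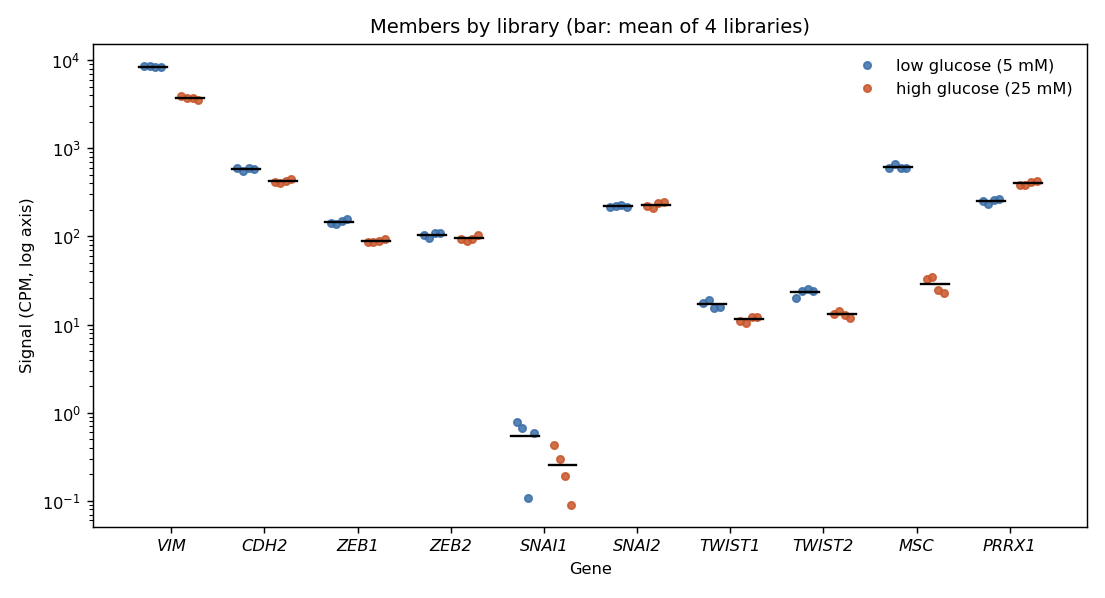
Signal of the 10 genes in each library (CPM, log axis), low glucose in blue and high glucose in orange, with the mean of 4 libraries as a black bar. MSC averaged 615 CPM at low and 28.7 CPM at high glucose, and the groups overlapped for ZEB2, SNAI1 and SNAI2.

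VIM was at 8581, 8456, 8269 and 8375 CPM in the 4 low-glucose libraries. In high glucose it was at 3909, 3722, 3735 and 3567 CPM. Every high-glucose library lay below every low-glucose library, and the mean went from 8420 ± 132 to 3733 ± 140 CPM, a 2.26-fold drop (log2 fold change -1.17 ± 0.0379 SE, 95% interval -1.25 to -1.09, adjusted p = 4.94e-13). VIM remained one of the most abundant messages: it ranked 5 or 6 among all rows in the low-glucose libraries and 8 in each high-glucose library. Its share of the signal went from 0.693% ± 0.00689 to 0.364% ± 0.0109. Of the tested genes, 843 had a lower fold change.

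CDH2, the classical cadherin of mesenchymal and neural cells, was at 601, 556, 595 and 587 CPM in low glucose. It was at 410, 401, 430 and 442 CPM in high glucose. All 4 high-glucose values were below the lowest low-glucose value, but the drop was smaller than that of VIM, 1.39-fold (log2 fold change -0.47 ± 0.0390 SE, adjusted p = 2.27e-08). CDH1, the E-cadherin gene that it replaces in EMT, averaged 0.309 ± 0.188 CPM at low and 0.699 ± 0.248 CPM at high glucose and was not called (adjusted p = 0.0533), so E-cadherin message was near the detection limit at both glucose levels.

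The paralogs ZEB1 and ZEB2 parted. ZEB1 was at 141, 139, 150 and 156 CPM in low glucose and at 87.2, 87.0, 89.3 and 94.2 CPM in high glucose. The groups were well apart, and the means of 147 ± 7.61 and 89.4 ± 3.37 CPM stood for a 1.64-fold drop (log2 fold change -0.71 ± 0.0463 SE, adjusted p = 1.53e-09). ZEB2 was at 104, 95, 110 and 108 CPM in low glucose and at 94.6, 89.6, 94.5 and 105 CPM in high glucose. Its groups overlapped, and the difference of -0.12 had a 95% interval of -0.24 to 0.00 (adjusted p = 0.0687). That result was sensitive to the fit and to single libraries: ZEB2 passed as lower with the replicate number as a block (-0.12, adjusted p = 0.0190), without low-glucose replicate 2 (-0.16, adjusted p = 0.0148) and without high-glucose replicate 4 (-0.16, adjusted p = 0.0113), whereas with equal column totals the difference was 0.12 (adjusted p = 0.0665), with a range of 0.0113 to 0.753 over all alternatives.

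Both ZEB messages are classical targets of the miR-200 family and miR-205, small RNAs of epithelial cells that block ZEB protein production. The mature sequences are shown, 5′ to 3′, with the seed (bases 2 to 8) in capitals, because the host transcripts of these miRNAs were read in the same libraries. MIR200CHG carries miR-200c and miR-141 and MIR205HG carries miR-205, and both were listed at 0 in all 8 libraries. The sequences are from RefSeq (GRCh38.p14), at chr12:6963742-6963764, chr12:6964155-6964176 and chr1:209432166-209432187, all on the plus strand.
hsa-miR-200c-3p: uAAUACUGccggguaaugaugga
hsa-miR-141-3p: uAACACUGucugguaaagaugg
hsa-miR-205-5p: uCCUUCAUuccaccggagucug
The miR-200c and miR-141 seeds differ at one base, so their matching sites differ as well. The site for miR-200c, CAGTATT, occurred 6 times in the canonical transcript of ZEB1 and 6 times in that of ZEB2. CAGTGTT, the site for miR-141, occurred 7 times in each of them, and ATGAAGG, the site for miR-205, occurred 2 times in each. The rates for the first site were 1.01 and 0.648 per kilobase, against 0.0867 over all 19894 canonical coding transcripts, of which 6.09% held at least 2 such sites. Among the other 8 members, the miR-200c site was found only once, in SNAI2, and the miR-141 site in none of them. The miR-205 site was found 2 times in CDH2 and once in VIM, at 0.498 and 0.464 per kilobase, above its rates in ZEB1 (0.337) and ZEB2 (0.216). A site is a match of letters, on the message strand only, and no miRNA was measured in these libraries. The last miR-200c site in each ZEB transcript is shown with 7 bases on either side, capitals marking the match, at positions 5354 to 5374 of the ZEB1 and 4917 to 4937 of the ZEB2 transcript (GENCODE v44 lifted to GRCh37).
ZEB1: tcattatCAGTATTttctttg
ZEB2: tagtgtaCAGTATTatagttc
Any part of these sites in the values of ZEB1 and ZEB2 was not tested.

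The SNAIL family gave no call. SNAI1, the founding repressor of CDH1, was barely expressed, at 0.775, 0.675, 0.108 and 0.590 CPM in low glucose and 0.433, 0.301, 0.191 and 0.0901 CPM in high glucose. These values stand for 1 to 7 estimated reads per library, and SNAI1 entered the test only through low-glucose libraries. The difference of -0.28 had a 95% interval of -0.65 to 0.10 (adjusted p = 0.165), and it passed without low-glucose replicate 3 (-0.43, adjusted p = 0.0311), the low-glucose library with 1 read, with a range of 0.0311 to 0.357 over all alternatives. At so few reads, the call of SNAI1 turned on that library. SNAI2 (SLUG), the family member of basal and mesenchymal breast cells, was abundant, at 217, 221, 229 and 218 CPM in low glucose and 223, 209, 239 and 245 CPM in high glucose. The groups overlapped and differed by 0.05 on the log2 scale, with a 95% interval of -0.05 to 0.15 (adjusted p = 0.388). SNAI2 passed as higher with equal column totals (0.29, adjusted p = 7.25e-05) or quantile normalized (0.16, adjusted p = 0.00688), and its adjusted p ran up to 0.813 over the alternatives.

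Both TWIST genes fell. TWIST1 was at 17.6, 18.8, 15.6 and 15.7 CPM in low glucose and at 11.1, 10.3, 12.1 and 12.2 CPM in high glucose. The groups did not overlap, and the drop was 1.48-fold (log2 fold change -0.52 ± 0.0951 SE, adjusted p = 1.37e-04). TWIST2, its shorter paralog, was at 19.9, 24.2, 25.6 and 24.2 CPM in low glucose and at 13.3, 14.1, 12.8 and 12.0 CPM in high glucose. Its drop was 1.80-fold, again without overlap (log2 fold change -0.80 ± 0.0916 SE, adjusted p = 1.18e-06). These rest on 103 to 236 estimated reads per library, fewer than for the other called members.

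MSC was the member that moved most. It was at 591, 670, 600 and 599 CPM in low glucose and at 33.1, 34.2, 24.7 and 22.9 CPM in high glucose. The mean went from 615 ± 36.9 to 28.7 ± 5.77 CPM, a 21.4-fold drop (log2 fold change -4.39 ± 0.101 SE, 95% interval -4.61 to -4.18, adjusted p = 1.38e-14). Only 1 of the 15570 tested genes had a lower fold change, as the histogram of all tested genes shows. The values rest on 254 to 5960 estimated reads per library. MSC shares 1290 bases of chromosome 8 with the antisense gene MSC-AS1, which fell as well, from 174 ± 8.35 to 46.1 ± 1.25 CPM (log2 fold change -1.89, adjusted p = 2.48e-14). The study's methods name a stranded library kit for its RNA-Seq, but whether the counting used strand is not given in the sources used here, and without it reads of the 2 genes cannot be told apart in the shared bases.

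**Figure D2:**
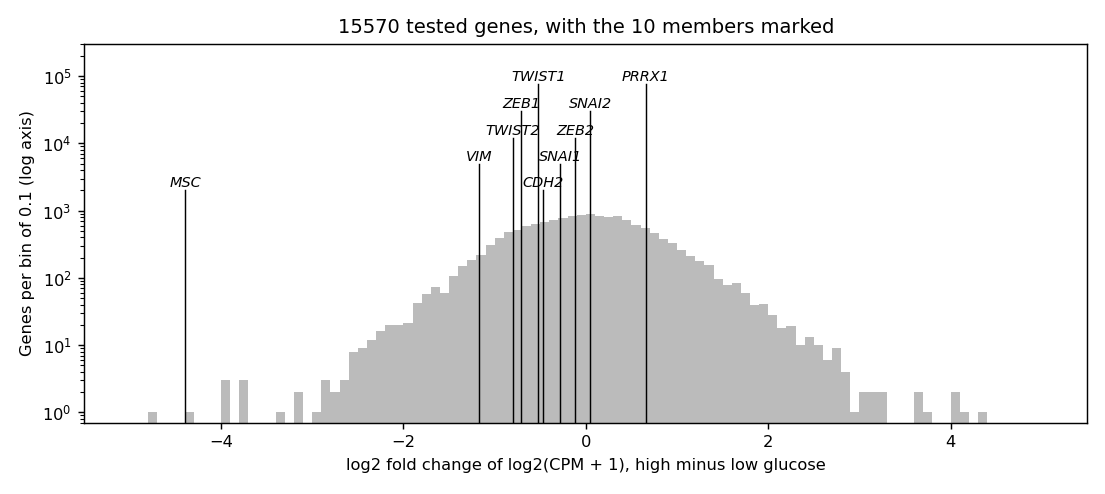
Number of tested genes (log axis) by log2 fold change of log2(CPM + 1), high minus low glucose, in bins of 0.1, with black lines at the 10 members. MSC, at -4.39, lies beyond all but 1 of the 15570 genes, while the other members lie between -1.17 and 0.66.

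PRRX1 went the other way. It was at 254, 233, 259 and 265 CPM in low glucose and at 380, 380, 412 and 427 CPM in high glucose. Each high-glucose library exceeded each low-glucose library, a rise of 1.58-fold (log2 fold change 0.66 ± 0.0482 SE, adjusted p = 5.61e-09), and 82.6% of tested genes had a lower fold change. Its paralog PRRX2 was low and fell, from 5.70 to 2.15 CPM (log2 fold change -1.10).

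All 7 called members kept their call and direction under each scaling of the libraries, but the sizes of several changes rested on it. The deposited columns sum to more in low than in high glucose, and rescaling them to the same total moved the median of all tested genes by 0.19 and turned the balance of calls from 5553 higher and 5797 lower to 7327 higher and 4349 lower. Under that scaling ZEB1 changed by -0.46, CDH2 by -0.23 and TWIST1 by -0.29, each smaller than as deposited and still called. VIM changed by -0.93 under it, and by -0.35 with quantile normalization, which replaces the values of the few most abundant genes by the average at the same rank. PRRX1 rose by 0.62 to 0.90 and MSC changed by -4.48 to -4.15 over all alternatives.

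**Figure D3:**
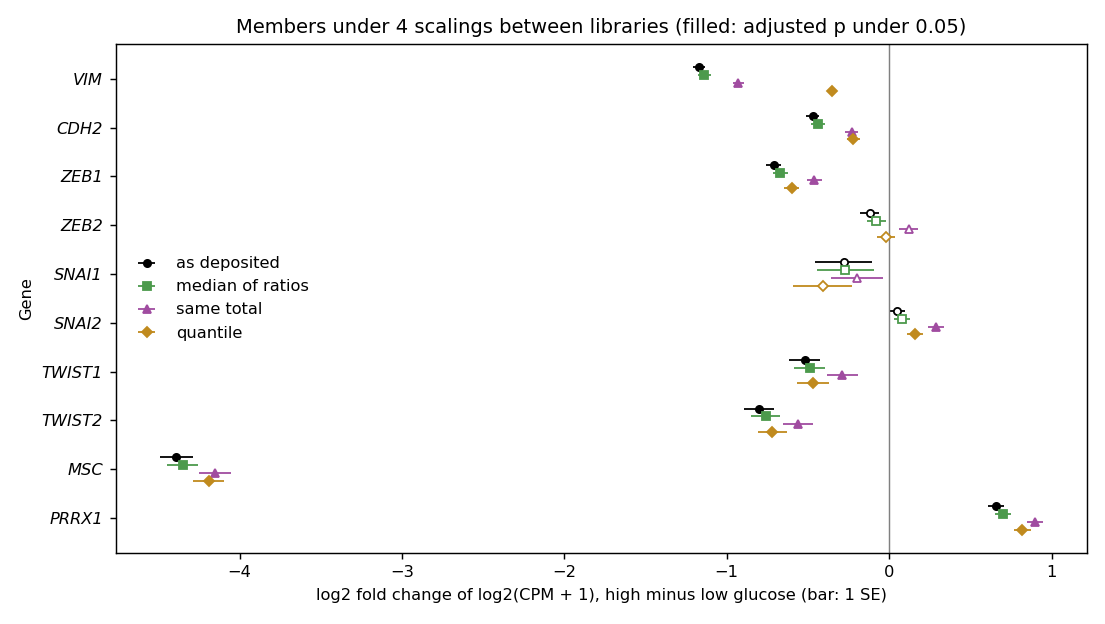
Log2 fold change (high minus low glucose, bars 1 SE) of the 10 genes with the values as deposited and under 3 other scalings, filled symbols marking an adjusted p under 0.05. ZEB2 runs from -0.12 as deposited to 0.12 with equal totals, and VIM from -1.17 to -0.35 with quantile normalization.

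Windows upstream of VIM, ZEB1 and ZEB2 are shown because ZEB, SNAIL and TWIST proteins bind E-boxes (CANNTG), which are given in capitals. They were also picked because ZEB1 and ZEB2 responded differently. Which transcription start the cells used was not measured, so a window need not be the promoter in use. Each run is the 250 bases before the start of the gene in RefSeq (GRCh38.p14), read in the direction of the gene, at chr10:17227991-17228240 on the plus strand for VIM, chr10:31318167-31318416 on the plus strand for ZEB1 and chr2:144520120-144520369 on the minus strand for ZEB2.
VIM: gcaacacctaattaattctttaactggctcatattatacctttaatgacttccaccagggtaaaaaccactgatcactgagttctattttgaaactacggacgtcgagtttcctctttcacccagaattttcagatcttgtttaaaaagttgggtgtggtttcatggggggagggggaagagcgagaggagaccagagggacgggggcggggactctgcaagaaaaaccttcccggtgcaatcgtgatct
ZEB1: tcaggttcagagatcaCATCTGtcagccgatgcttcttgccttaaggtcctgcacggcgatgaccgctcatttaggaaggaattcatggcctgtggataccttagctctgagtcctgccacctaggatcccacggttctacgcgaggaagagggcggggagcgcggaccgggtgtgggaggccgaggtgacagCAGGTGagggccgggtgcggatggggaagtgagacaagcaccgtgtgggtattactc
ZEB2: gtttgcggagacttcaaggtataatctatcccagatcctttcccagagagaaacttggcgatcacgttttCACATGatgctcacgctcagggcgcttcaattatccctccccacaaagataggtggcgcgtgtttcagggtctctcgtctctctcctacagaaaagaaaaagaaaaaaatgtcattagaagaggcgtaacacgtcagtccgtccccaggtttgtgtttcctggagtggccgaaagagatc
The ZEB1 window held 2 E-boxes, 1 of them CAGGTG, the reverse complement of the CACCTG form that ZEB and SNAIL proteins prefer. The ZEB2 window held 1, of another form, and the VIM window none. The windows of TWIST2 and CDH2, which are not shown, held none either, and both genes fell. The PRRX1 window, also not shown and not ending at the gene start, held none as well, and PRRX1 rose. Of 35114 such windows in RefSeq, 61.8% held at least 1 E-box and 17.5% held CACCTG or CAGGTG, which are also E-boxes. Both strands were covered, since CANNTG reads as CANNTG on the other strand. A match is a description of the letters in this window and not a bound site. Any part of these E-boxes in the values of the genes was not tested.

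By gene, the 10 lie on 7 autosomes, with VIM from 17228241 to 17237593 and ZEB1 from 31318417 to 31529804 of chromosome 10, ZEB2 from 144384081 to 144520119 and TWIST2 from 238848085 to 238910534 of chromosome 2, and SNAI2 from 48917598 to 48921429 and MSC from 71841560 to 71844412 of chromosome 8. PRRX1 lies from 170662768 to 170739421 of chromosome 1, TWIST1 from 19113047 to 19117636 of chromosome 7, CDH2 from 27932879 to 28177130 of chromosome 18 and SNAI1 from 49982980 to 49988886 of chromosome 20 (RefSeq, GRCh38.p14, the hg38 build that the processing notes name). All are protein-coding, and their values are for the whole gene. VIM-AS1 overlaps VIM over 1745 bases, and it rose from 0.426 ± 0.242 to 1.72 ± 0.258 CPM (log2 fold change 0.95, adjusted p = 7.24e-05). VIM-AS1 reached 0.5 CPM in 1 low-glucose library and in all 4 high-glucose libraries, so it entered the test through the group in which it was higher. ZEB1-AS1, which overlaps ZEB1 over 2031 bases, was at 2.25 ± 0.510 and 2.55 ± 0.398 CPM (adjusted p = 0.437).

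Levels of different genes were compared per kilobase of the canonical transcript. In low glucose VIM was first, at 3910 ± 61.2 CPM per kilobase, followed by MSC (314 ± 18.9), CDH2 (146 ± 5.00), SNAI2 (102 ± 2.60) and PRRX1 (62.2 ± 3.46). TWIST2 (26.0 ± 2.72) and ZEB1 (24.7 ± 1.28) came next and did not differ beyond their spread, nor did ZEB2 (11.3 ± 0.718) and TWIST1 (10.4 ± 0.949), with SNAI1 last at 0.315 ± 0.173. In high glucose VIM was again first, at 1730 ± 64.9 CPM per kilobase, and CDH2 (105 ± 4.64), SNAI2 (105 ± 7.48) and PRRX1 (98.4 ± 5.80) lay within their spread of each other. ZEB1 (15.1 ± 0.568), MSC (14.7 ± 2.95) and TWIST2 (14.5 ± 1.01) formed the next group, ahead of ZEB2 (10.4 ± 0.705), TWIST1 (7.02 ± 0.559) and SNAI1 (0.149 ± 0.0865). MSC thus left the second place for a place among ZEB1 and TWIST2, and SNAI2 was level with CDH2 in high but not in low glucose. Which isoforms the cells used was not measured, so an order that rests on small differences is uncertain.

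Differences between genes within a library depend little on a common scaling factor, except for low genes, and were compared for 7 pairs, each by a 2-sided exact permutation test over 70 arrangements. The smallest p that 4 against 4 libraries allow is 0.0286, which 5 pairs reached (adjusted p = 0.0400 over the 7 pairs). The pairs were set by family, from members and list genes chosen with earlier results of these data known. Where the changes of both genes differ widely, as for TWIST1 and MSC or PRRX1 and PRRX2, the smallest p followed from those changes. These p values are therefore no separate evidence beside the single-gene results. ZEB1 minus ZEB2 was 0.43, 0.55, 0.44 and 0.53 in low glucose and -0.12, -0.04, -0.08 and -0.16 in high glucose on the log2(CPM + 1) scale. These values are not corrected for transcript length, so the shift of -0.59 is read and not the sign (exact permutation adjusted p = 0.0400). Per kilobase, ZEB1 was above ZEB2 at both levels, at 24.7 and 11.3 CPM in low and 15.1 and 10.4 CPM in high glucose. PRRX1 minus PRRX2 shifted by 1.76, from 5.25 ± 0.233 to 7.0 ± 0.279, as PRRX1 rose and PRRX2 fell (exact permutation adjusted p = 0.0400).

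VIM minus CDH2 went from 3.85 ± 0.0556 to 3.15 ± 0.107, a shift of -0.70 (exact permutation adjusted p = 0.0400), which was -0.13 with quantile normalization. CDH2 minus CDH11, an osteoblast-type cadherin of mesenchymal cells, went from 2.0 ± 0.0756 to 1.0 ± 0.0288, a shift of -1.01 (exact permutation adjusted p = 0.0400), since CDH11 rose from 145 ± 4.08 to 210 ± 7.41 CPM. TWIST1 minus MSC shifted by 3.87, from -5.11 ± 0.0863 to -1.24 ± 0.387 (exact permutation adjusted p = 0.0400).

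The other pairs did not pass. TWIST1 minus TWIST2 was -0.17, -0.35, -0.68 and -0.59 in low glucose and -0.25, -0.42, -0.07 and 0.03 in high glucose. These ranges overlapped, and the shift of 0.27 was not shown to differ from 0 (exact permutation adjusted p = 0.167). SNAI1 minus SNAI2 went from -7.20 ± 0.341 to -7.52 ± 0.255, a shift of -0.32 with overlap (exact permutation adjusted p = 0.200), at the few reads of SNAI1.

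**Figure D4:**
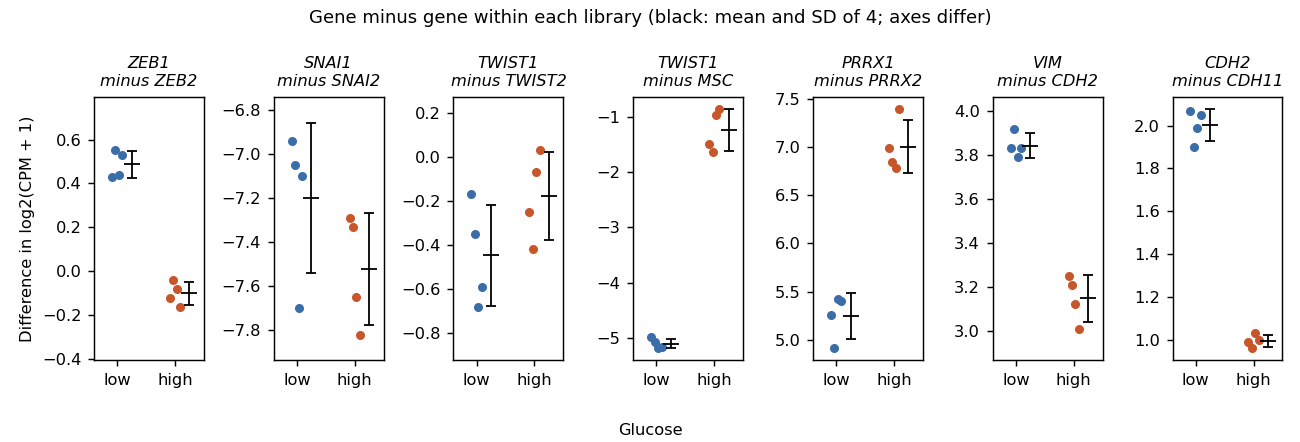
Difference in log2(CPM + 1) between 2 genes within each library, low glucose in blue and high glucose in orange, with mean and SD of 4 libraries in black and a separate vertical axis for each pair. ZEB1 minus ZEB2 does not overlap between the groups, and TWIST1 minus TWIST2 overlaps. Values are not corrected for transcript length, so the sign of a difference gives no order of levels.

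The profiles of VIM, ZEB1 and MSC over the 8 libraries were compared with those of 11292 genes with at least 5 CPM in a group, by Euclidean distance of log2(CPM + 1) centred on the mean of each gene. With 2 groups this measure mostly finds genes with the same size of change. Nearest to VIM were CARS (distance 0.0623), DNAJB1 (0.0684) and FTL (0.0780), which encode the cysteinyl-tRNA synthetase, an HSP40 cochaperone and the ferritin light chain, with log2 fold changes of -1.16, -1.15 and -1.16. Nearest to ZEB1 were NEPRO (0.0621), ZNF451 (0.0668) and EBF1 (0.0920), with -0.73, -0.73 and -0.69. MSC had no neighbor as close, and the nearest were GDF15 (0.645), a stress-induced cytokine, KRT16 (0.776), a keratin with near-identical copies, and HEY1 (0.978), a bHLH repressor of the Notch pathway, with -3.95, -3.91 and -3.97.

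Other genes around these members moved in both directions. Their counts are to be read against the 37.2% lower and 35.7% higher among all tested genes, to which several lists were close. Of 53 tested mesenchymal effectors, 28 fell (52.8%) and 19 rose (35.8%), with a median of -0.14. FSTL1 (1.80), THBS1 (1.73) and the receptor PDGFRA (1.26) rose and TIMP3 (-1.14) fell, as log2 fold changes. TAGLN (-1.39), POSTN (-1.19), CNN1 (-1.14) and BGN (-1.08) were also among the 28 genes that fell. NT5E (1.16), ITGAV (0.85), LUM (0.73) and COL1A2 (0.70) were also among the 19 that rose. With quantile normalization the balance turned, to 18 lower and 29 higher, where all tested genes were 36.1% lower and 36.1% higher. Of 20 tested epithelial genes that EMT factors are known to repress, 7 fell (35%) and 6 rose (30%), with the tight junction genes CLDN1 (from 12.7 ± 0.498 to 1.07 ± 0.116 CPM) and OCLN (12.2 ± 0.772 to 4.05 ± 0.636 CPM) lower. EPCAM, CLDN3, CRB3, RAB25 and F11R were listed at 0 throughout.

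Among 23 tested EMT regulators beyond the members 11 fell and 10 rose, with FOSL1 (1.20), SOX4 (1.35) and RUNX1 (1.46) higher and HMGA1 (-1.23) lower. With equal totals 5 of them were lower, where all tested genes shifted to 27.9% lower and 47.1% higher. The E proteins that pair with TWIST also split, with TCF4 (1.20) higher and TCF3 (-0.40) and TCF12 (-0.40) lower. Of 8 tested factors that oppose EMT 3 fell and 2 rose, with KLF4 falling from 104 ± 2.45 to 32.5 ± 1.78 CPM and KLF5 rising (0.68), and GRHL2, OVOL1 and OVOL2 at or near 0. Among 13 tested intermediate filament genes and linkers 9 rose and only AIFM2 (-1.06) fell, with LMNB1 (2.84), NEFL (1.42), SYNM (1.16) and MACF1 (0.97) higher. This list holds no keratins, and the keratins of the marker lists fell as VIM did: KRT8 (-1.47), KRT18 (-1.15), KRT14 (-2.32) and KRT17 (-2.32). AIFM2 encodes an oxidoreductase and is no filament gene. Of 20 tested cadherins and catenins 5 fell and 9 rose, and as with CDH2, CDH13 fell (-1.04) while CTNNB1 (1.10), the beta-catenin gene, PKP4 (1.23) and CDH11 (0.53) rose.

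**Figure D5:**
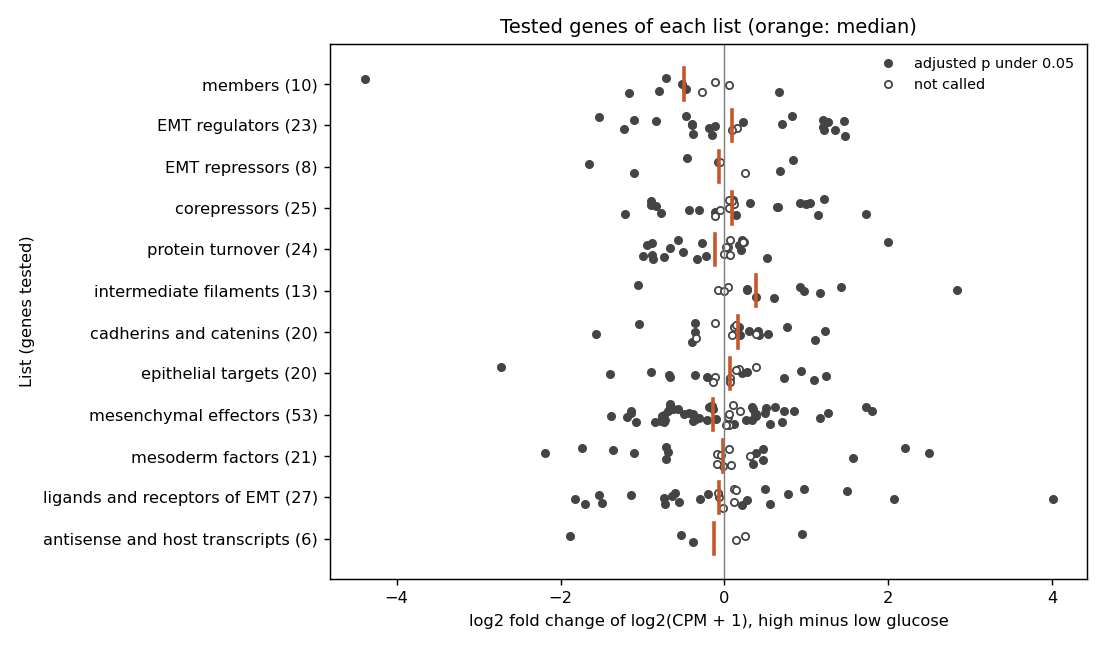
Log2 fold change (high minus low glucose) of each tested gene of the members and 11 other lists, filled where the adjusted p was under 0.05, with the list median in orange and the number tested in parentheses. The medians run from -0.50 for the members to 0.39 for intermediate filament genes.

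Corepressors that ZEB and SNAIL proteins recruit were mixed, with 11 of 25 higher and 8 lower. AJUBA (1.73), a SNAIL-binding LIM protein, CHD4 (1.21), HDAC1 (1.04) and RBBP4 (0.92) rose. CTBP1 (-0.90), a corepressor bound by ZEB1, fell, while its paralog CTBP2 (0.11) was not called. Of 24 tested genes of SNAIL, TWIST and ZEB protein turnover 12 fell and 6 rose, with LATS2 (2.0) higher and CSNK2A1 (-0.88), FBXL5 (-0.99) and SIAH2 (-0.87) lower. With equal totals 18 corepressors and 11 turnover genes were higher, under the same shift of all tested genes to 47.1% higher. Of 21 tested mesodermal factors, which belong to several protein families, 7 fell and 7 rose (33.3% each). Among them NR2F1 (2.50) and MEF2C (2.20) rose and TBX15 (-2.19) and MEF2D (-0.71) fell. Of 27 tested ligands, receptors and SMADs that can induce EMT 12 fell and 9 rose, with TGFB2 (2.07) and BMP4 (4.01) higher and JAG1 (-1.70) and FGF2 (-1.82) lower. Of the 6 tested antisense and host transcripts 3 fell and 1 rose, SNAI3-AS1 (-0.53) and LINC01638 (-0.39, adjusted p = 0.0423, a call lost in 9 alternatives) among the falling and LINC00910 (0.25) without a call.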

How the data were processed

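The deposited file was a gene-by-library table of normalized signal, whose columns were matched to samples by their description and title. The authors used edgeR and hg38, per their processing notes. For RNA-Seq their methods give TMM-scaled CPM and a 0.5 CPM filter, but do not list cultured Hs578T, so reading the deposited signal in this way is an assumption. The columns sum to 1017015 to 1229021. The study's supplement describes stranded libraries and alignment by Tophat to hg19, whereas the notes for these samples name hg38, so the aligner of these files is uncertain, and the counter is not given in the sources at hand. The table holds 1552 rows at 0 throughout, so the 0.5 CPM filter had not been applied to it. TMM assumes that most genes do not change. The most frequent positive value of a column was taken as 1 read (0.0867 to 0.118 CPM), and since low values were often fractions of it, no count model was used. Limits set by counts include only counting error.

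The test was limma 3.58.1 in R 4.3.3 on log2(CPM + 1) for genes reaching 0.5 CPM in 2 libraries, without covariates and with a variance trend, and genes were called at an adjusted p under 0.05. Pairs of genes were compared by exact permutation. The fit and the permutation test were tested on simulated data. Transcript lengths and sites came from GENCODE v44 canonical transcripts, and upstream windows were matched for 6 of 10 members. Members and gene lists were chosen with earlier results of these data known. Named genes were the members, up to 4 called genes of each list by smallest p with at least 5 CPM in a group (the highest 2 where none was called), the antisense list, and the 3 nearest profiles of VIM, ZEB1 and MSC. Genes named besides these were chosen after their values were seen. Alternatives covered pseudocounts of 0.1 and 5 CPM, 2 filters, 3 scalings, the variance prior, a replicate block and each library left out. Some genes that these rules name are not reported here.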

Additional observations from a re-analysis of the deposited data

Results flagged for a closer look

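Among the 34 groups of 4 libraries examined (10 genes and 7 pairs, at 2 glucose levels), 1 held a library far from the others. MSC in low-glucose replicate 2 was at 670 CPM, above the 591 to 600 CPM of the other 3, with a gap of 0.890 of the range of the group. Chance gives about 1 such library in 20 groups. Without it the log2 fold change of MSC was -4.35.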

How the results depend on the processing

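The count of 6 members called lower was within 1.5 times of itself under all 18 alternatives, and 2 members in place of 1 were called higher with equal totals and with quantile normalization. Replicate numbers were shared between groups, and whether they pair the libraries is not known. The correlation of deviations was -0.0267 to 0.112 for same-numbered libraries, and 4 of 8 libraries correlated best with their own number. With the replicate block 11494 genes were called in place of 11350, and ZEB2 passed (adjusted p = 0.0190). For pairs the block allows no p under 0.125, so the adjusted p of 0.175 for the shifts of -0.59 (ZEB1 and ZEB2), 3.87 (TWIST1 and MSC), 1.76 (PRRX1 and PRRX2), -0.70 (VIM and CDH2) and -1.01 (CDH2 and CDH11) says nothing about stability. With equal totals, called lower were 5 EMT regulators and 3 cadherins and catenins, and called higher were 18 corepressors, 11 turnover genes, 11 mesoderm factors and 2 antisense and host transcripts. With the filter of 5 CPM, 1 EMT repressor was lower and 1 higher, 3 cadherins and catenins were lower and 0 antisense transcripts higher. Without a filter 2 intermediate filament genes were lower, with quantile normalization 18 mesenchymal effectors were lower and 29 higher, and without a trend 2 antisense transcripts were higher. Of all tested genes, 27.9% were lower and 47.1% higher with equal totals, and 45.8% and 36.7% with the filter of 5 CPM. These shares were 29.8% and 30.3% without a filter, 36.1% and 36.1% with quantile normalization, and 36.8% and 35.7% without a trend. The cause of the moved list counts was not tested beyond the genes that filters remove. LINC01638 lost its call in 9 alternatives. SNAI1 was not tested with the filter of 5 CPM.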
